A study of Mus musculus with 80 samples.

Results

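The cyclic nucleotide phosphodiesterases (PDE) are the enzymes that break the second messengers cAMP and cGMP down to AMP and GMP. In the striatum, dopamine D1 receptors couple through the G protein Golf to adenylyl cyclase and raise cAMP, whereas D2 receptors lower it, and phosphodiesterases set how long and how far the messenger reaches. The family includes enzymes that hydrolyse both messengers (among them PDE1, PDE2 and PDE10), enzymes that prefer cAMP (among them PDE4, PDE7 and PDE8) and enzymes that prefer cGMP. PDE10A is known as an enzyme of striatal medium spiny neurons (MSN). The 10 genes described here, Pde10a, Pde1b, Pde1c, Pde2a, Pde4a, Pde4b, Pde4d, Pde7a, Pde7b and Pde8b, were chosen by name, and all 10 were among the 25160 genes listed for 80 single cells.

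Cells came from the dorsomedial striatum of adult mice heterozygous for the BAC transgenes Drd1a-TdTomato and Drd2-EGFP, so that every cell, of either group, shared this genotype. The region had been marked by injecting the nuclear dye Hoechst with India ink, slices were digested with papain, and cells were sorted by FACS into wells of 3 plates, from each of which cDNA was made with the SMARTer kit. Each group is thus defined by the regulatory sequence of a dopamine receptor gene driving a reporter, and holds those cells that survived dissociation and passed the gate. Of the cells, 40 were labelled Drd1 (D1 MSN) and 40 Drd2. Among the latter, 2 cells with Chat above 100 TPM were set apart as cholinergic interneurons (ChI), which left 38 D2 MSN and 78 MSN in all. The study's methods name several animals, but the labels tie neither cells nor plates to them, so the D1 and D2 cells of a plate may share an animal. Each group therefore counts as 1 sample: no test was made, and SD, quartiles and intervals describe the spread over cells only.

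The values are TPM, which are scaled by gene length. The listed genes of a cell did not sum to a fixed total, as the sums ran from 506588 to 958040 TPM over MSN. Levels of different genes are set side by side here with a limit. The study reports a bias of reads toward the 3' end of transcripts, and that an incomplete annotation there can hide reads. How far this touches the order of the genes was not tested. MSN had 648 to 8657 genes above 1 TPM, with a median of 5722 in D1 MSN and 4928 in D2 MSN. Sequencing depth per cell cannot be read from TPM and is unknown here; the study gives it only over all cells. On the whole the levels of the markers went with the label, though not every marker was found in every cell. The summed level of 9 MSN markers had a median of 3262 TPM in D1 against 3699 TPM in D2 MSN. Drd1 was above 1 TPM in 38 of 40 D1 MSN and 3 of 38 D2 MSN, and Adora2a in 1 of 40 and 31 of 38. Of the other D1 markers, Tac1 was above 1 TPM in 39 of 40 D1 and 22 of 38 D2 MSN. Pdyn was so in 22 and 2 of them, and Isl1 in 24 and 1. Of the other D2 markers, Drd2 was above 1 TPM in 2 of 40 D1 and 26 of 38 D2 MSN, and Gpr6 in 0 and 30. Penk was above 1 TPM in 40 of 40 and 38 of 38, with medians of 11.4 and 10688 TPM. Summed cholinergic markers reached at most 14.7 TPM in any MSN, and the medians in D1 and D2 MSN were 1.36 and 0.58 TPM for summed astrocyte markers and 3.85 and 6.11 TPM for summed oligodendrocyte markers. Some Drd1 labelled cells stood apart. Well D04 of plate FACS051_5 carried the astrocyte markers Aldoc at 10427 TPM and Slc1a3 at 1334 TPM with Drd1 at 2.03 TPM and Bcl11b at 0, well B02 of plate FACS086_4 held only 648 genes, and well C06 of plate FACS051_5 had Drd1 at 297 TPM together with Penk at 3676 TPM. All of them stay in the values below, and values without them are given where they bear on a result.

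Pde10a and Pde1b were by far the most abundant of the 10 genes, followed by a middle group of Pde4b, Pde7b, Pde2a and Pde8b and a low group of Pde1c, Pde4a, Pde7a and Pde4d. Mean levels over the 78 MSN were 480 TPM for Pde10a and 298 TPM for Pde1b, from 62.5 TPM (Pde8b) to 124 TPM (Pde4b) in the middle group, and from 10.1 TPM (Pde4d) to 26.0 TPM (Pde1c) in the low group. Pde10a ranked 140 of the 25160 listed genes by mean level and Pde1b ranked 290, whereas Pde4d ranked 7602. Taking each subtype on each of the plates FACS051_5 and FACS086_4, which hold 74 of the 78 MSN, as a set of cells of its own, the mean of Pde10a was above that of Pde1b in 4 of 4 sets, and Pde1b was above Pde4b in 4 of 4. Neighbours in the middle group stood in no fixed order: Pde4b exceeded Pde7b in 2 of 4 sets, and Pde7b exceeded Pde2a in 2 of 4. Pde7a and Pde4d, at 10.3 and 10.1 TPM, likewise stood in this order in 2 of 4 sets. Where the middle group meets the low group, Pde8b exceeded Pde1c in 3 of 4 sets. The groups follow the means: the median of Pde8b over MSN was 2.46 TPM, against 45.8 to 73.5 TPM for the other middle genes.

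**Figure D1:**
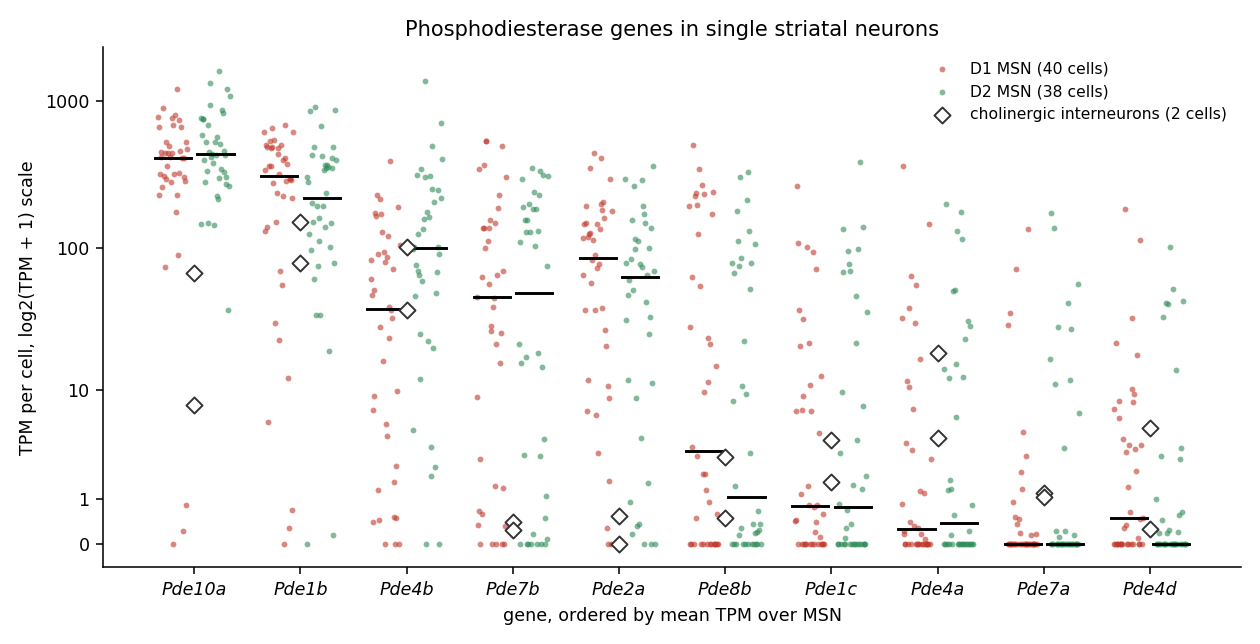
Level of each of the 10 phosphodiesterase genes in every cell, on a log2(TPM + 1) axis, with 40 D1 MSN in red, 38 D2 MSN in green and 2 cholinergic interneurons as open diamonds; black bars are medians over cells. Pde10a and Pde1b form compact clouds in both subtypes, the next genes spread widely from 0 upwards, and the lowest genes are at or near 0 in most cells.

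Pde10a, the dual-specificity enzyme that MSN are known for, was above 1 TPM in 37 of 40 D1 MSN and 38 of 38 D2 MSN (92.5%, exact 95% interval by Clopper-Pearson 79.6 to 98.4%, and 100%, 90.7 to 100%; such an interval covers the error of counting alone). It lies at chr17:8525372-8986648 on the plus strand (GRCm38, GENCODE M21, as for the positions that follow). Its level ran from 0 to 1212 TPM with a median of 415 TPM in D1 MSN, and from 37.3 to 1606 TPM with a median of 437 TPM in D2 MSN. The subtypes overlapped throughout, and the interquartile ranges, 286 to 531 TPM and 301 to 744 TPM, largely coincided. The 3 D1 labelled cells without Pde10a were those in well D04 of plate FACS051_5 with astrocyte markers (0 TPM), in well B02 of plate FACS086_4 with 648 genes (0.22 TPM), and in well B07 of plate FACS051_5 (0.83 TPM). The last of these was unlike the others. It had 4119 genes above 1 TPM and MSN markers such as Ppp1r1b at 502 TPM, Rgs9 at 247 TPM and Pdyn at 366 TPM, and Drd1 was listed at 0, yet none of the 10 phosphodiesterase genes was above 1 TPM in it.

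Pde1b, a calcium and calmodulin activated dual-specificity enzyme, lies at chr15:103503034-103530052 on the plus strand and was above 1 TPM in 37 of 40 D1 MSN and 36 of 38 D2 MSN. Levels ran from 0 to 693 TPM in D1 MSN (median 310 TPM) and from 0 to 913 TPM in D2 MSN (median 221 TPM). Both subtypes filled the same range, and 72 of the 78 MSN had Pde1b and Pde10a together above 1 TPM. Of the 5 MSN without Pde1b, 3 were the cells with fewer than 2000 genes above 1 TPM, and the others were those in wells B07 and C06 of plate FACS051_5. Pde1c (chr6:56069804-56569103, minus strand), which belongs to the same calmodulin-dependent family, was far more scarce. More than 1 TPM was found in 18 of 40 D1 MSN and 18 of 38 D2 MSN, had medians of 0.80 and 0.77 TPM, and reached 268 and 385 TPM in single cells. Pde1b made up 92.0% of the summed mean level of both Pde1 genes over MSN.

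Pde2a (chr7:101421691-101512827, plus strand) encodes a dual-specificity enzyme that cGMP stimulates, and links the messengers to each other. Levels ran from 0 to 448 TPM in D1 MSN (median 86.1 TPM) and from 0 to 366 TPM in D2 MSN (median 63.0 TPM), and 37 of 40 and 31 of 38 cells were above 1 TPM. In GENCODE M21 the exons of Pde2a overlap those of the protein-coding gene model Gm45837 on the same strand, which is not among the genes listed. Reads were counted with another annotation, GRCm38.75. Whether it holds this model was not checked, so the counting of reads there is not known.

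Pde4b, a cAMP-specific enzyme of the PDE4 family that rolipram inhibits, had the largest difference between the subtypes. It lies at chr4:102087543-102607259 on the plus strand. Levels in D1 MSN ran from 0 to 391 TPM with a median of 38.3 TPM and a mean of 69.8 ± 85.3 TPM (SD, 40 cells). Levels in D2 MSN ran from 0 to 1373 TPM with a median of 99.9 TPM and a mean of 181 ± 253 TPM (SD, 38 cells). More than 1 TPM was found in 33 of 40 D1 MSN and 36 of 38 D2 MSN, and above 100 TPM in 10 and 19 of them. Most D1 and D2 cells lay within the same range, and the top of the distribution was held by D2 MSN, of which the second highest was at 714 TPM, above every D1 MSN.

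The related Pde4a (chr9:21165714-21213248, plus strand) and Pde4d (chr13:108449948-109953461, plus strand) encode cAMP-specific enzymes of the same family. Pde4a was above 1 TPM in 16 of 40 D1 MSN and 17 of 38 D2 MSN, with medians of 0.25 and 0.39 TPM and highest cells of 365 and 200 TPM. Pde4d was above 1 TPM in 18 of 40 and 11 of 38, with a median of 0.48 TPM in D1 MSN and 0 in D2 MSN and highest cells of 186 and 102 TPM. For both genes most cells were at or near 0 and a few were high. Of the summed mean level of the 3 Pde4 genes described, Pde4b made up 69.2% in D1 MSN and 84.9% in D2 MSN, and 14 of 78 MSN had all 3 above 1 TPM.

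Cyclic AMP is known to act on genes through the cAMP response element (CRE), TGACGTCA, bound by CREB. The RefSeq promoter table (GRCm38.p6) matched 9 of the 10 genes, with 27 transcript starts, and the 250 bases before each start were searched on both strands. None of these 27 held the full CRE of 8 letters, which 1.55% of all 32851 promoters in the table held. Its 5-letter core, TGACG or CGTCA, which is part of the full CRE, stood in 2 of 27 (7.41%), against 17.8% of all promoters. Counted by gene, the core stood before a start of 2 of the 9 genes, against 19.8% of all 27025 genes. Neither count was adjusted for how many starts a gene has. The 2 starts are 1 of Pde4b, of 4 in the table, and 1 of Pde4a, of 3. They are shown because Pde4b differed most between the subtypes. Capitals mark the core, and the stretches lie at chr4:102421495-102421551 and chr9:21184025-21184081, both on the plus strand.
Pde4b: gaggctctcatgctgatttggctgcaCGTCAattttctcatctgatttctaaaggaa
Pde4a: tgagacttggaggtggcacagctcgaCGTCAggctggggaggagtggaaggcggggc
The core lies 34 to 30 bases before the start in Pde4b and 50 to 46 bases before it in Pde4a. A match of letters is a description of the window only, and the TPM give 1 value per gene, so which start was used in these cells was not measured.

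Pde7b (chr10:20398004-20725078, minus strand), which encodes a cAMP-specific enzyme of high affinity, was above 1 TPM in 31 of 40 D1 MSN and 28 of 38 D2 MSN. Levels ran from 0 to 538 TPM in D1 MSN (median 45.8 TPM) and from 0 to 351 TPM in D2 MSN (median 48.8 TPM), so the medians nearly coincided. Its paralog Pde7a (chr3:19223108-19311322, minus strand) was the gene found in the fewest cells. It was above 1 TPM in 8 of 40 and 11 of 38, with a median of 0 in both subtypes and highest cells of 135 and 174 TPM. Pde7b made up 91.3% of the summed mean level of both Pde7 genes. In exons of Pde7a the antisense gene Gm16093 overlaps, and in those of Pde8b the antisense gene Gm48420, again by GENCODE M21 and not by the annotation used for counting. Neither is among the genes listed, and whether reads were counted by strand is not given in the sources used here.

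Pde8b (chr13:95024454-95250336, minus strand) encodes a cAMP-specific enzyme that the common inhibitor IBMX does not block. More than 1 TPM was found in 24 of 40 D1 MSN and 19 of 38 D2 MSN. Levels ran from 0 to 507 TPM in D1 MSN (median 3.24 TPM) and from 0 to 329 TPM in D2 MSN (median 1.07 TPM). Most cells were therefore either near 0 or well above it, and the mean of 74.9 TPM in D1 against 49.3 TPM in D2 MSN describes few of them.

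The dual-specificity genes Pde10a, Pde1b, Pde1c and Pde2a together held 74.7% of the summed mean level of the 10 genes in D1 MSN, and 71.2% of it in D2 MSN. In 2 of the 78 MSN, wells B07 of plate FACS051_5 and B02 of plate FACS086_4, none of the 10 genes was above 1 TPM. Within the other 76 MSN the share had a median of 75.6%, with an interquartile range of 63.5 to 86.8%. Pde10a was the highest of the 10 genes in 48 of these 76 cells and Pde1b in 17, so that 1 of them led in 65. In D1 MSN Pde10a led in 20 and Pde1b in 10 of 38 cells, and in D2 MSN they led in 28 and 7 of 38. Among the remaining 11 cells, Pde7b and Pde4b led in 3 each, Pde2a and Pde8b in 2 each, and Pde4a in 1; a cell led by Pde8b was well D04 of plate FACS051_5, with astrocyte markers. The sum over the 10 genes had a median of 1160 TPM in D1 against 1307 TPM in D2 MSN, with overlapping interquartile ranges of 859 to 1527 TPM and 976 to 1737 TPM.

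A median of 7 of the 10 genes was above 1 TPM in each subtype, with a range of 0 to 9 in D1 MSN and 1 to 10 in D2 MSN. Only the D2 MSN in well C12 of plate FACS051_5 had all 10. How many were found went along with how many genes of any kind were found: over 78 cells, Spearman's rho between the number of these genes and the number of genes above 1 TPM was 0.72, a description over cells that share plates and whose depth is unknown. Since the count of genes above 1 TPM contains these 10 and moves with depth, their part in the spread was not tested. The cell in well B07 of plate FACS051_5 was an exception to this relation, with 0 of the 10 at 4119 genes.

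**Figure D2:**
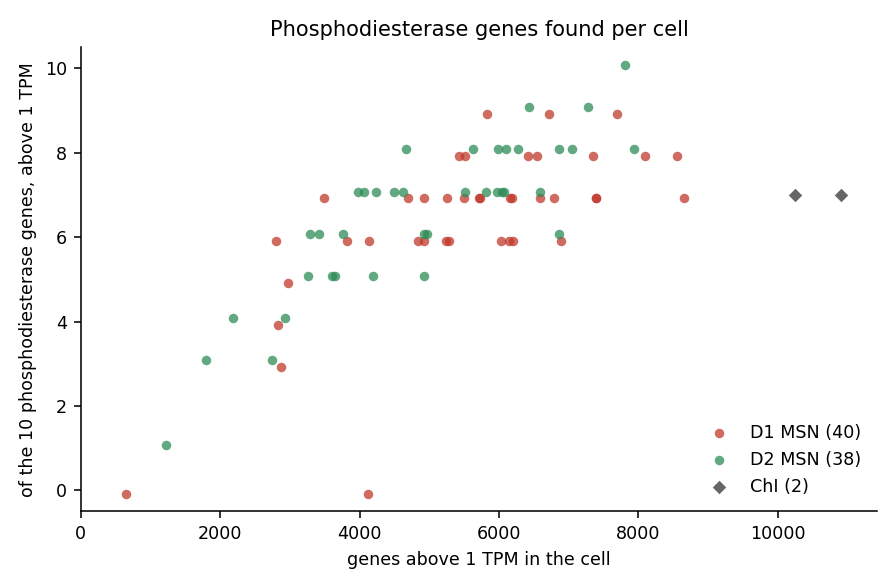
Number of the 10 phosphodiesterase genes above 1 TPM in each cell (vertical axis) against all genes above 1 TPM in that cell (horizontal axis), with D1 MSN in red, D2 MSN in green, slightly offset from each other, and the 2 cholinergic interneurons as diamonds. Counts are low in cells with few genes and reach 9 or 10 only in cells with many genes, and 1 D1 cell with 4119 genes has 0.

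The comparison of D1 with D2 MSN asks whether the genes of messenger breakdown differ between neurons in which dopamine raises and lowers cAMP. As log2 of the ratio of mean TPM plus 1, D1 over D2, only Pde4b was past 2-fold. Its log2 fold was −1.36, that is 2.57-fold higher in D2 MSN, and it was past 2-fold in the same direction on both large plates, at −1.46 on FACS051_5 and −1.29 on FACS086_4. All 10 genes had a mean of at least 10 TPM over MSN, and 1 of 10 past 2-fold higher in D2 MSN stands against 9.58% of the 7642 genes that reach such a mean. For D2-higher on both large plates as well, the share of all these genes was 3.55%. In the other direction, 0 of 10 were past 2-fold higher in D1 MSN, against 12.4% of all. The median log2 fold of the 10 genes was −0.05, and that of all 7642 genes was 0.01.

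On plate FACS051_5 the Pde4b difference was seen in most cells, and on plate FACS086_4 it rested on few. The medians were 13.1 TPM in 18 D1 MSN but 156 TPM in 16 D2 MSN on FACS051_5, where the lower quartile of D2 MSN, 93.0 TPM, lay above the upper quartile of D1 MSN, 74.0 TPM. On FACS086_4 the medians were 71.8 TPM in 21 D1 MSN against 65.4 TPM in 19 D2 MSN, and the number of cells above 100 TPM was 7 in either subtype. There the fold of the means came from the top of the distribution. Without the highest cell of each subtype the log2 fold on this plate was −0.84, no longer past 2-fold, and without the 2 highest cells of each it was −0.52. The same values on FACS051_5 were −1.90 and −2.24. Over all MSN the log2 fold of Pde4b was −1.26 without the highest cell of each subtype, −1.54 without the D1 cell in well C06 of plate FACS051_5, which held the highest D1 value, and −1.25 without the 3 D1 cells that lacked Pde10a.

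**Figure D3:**
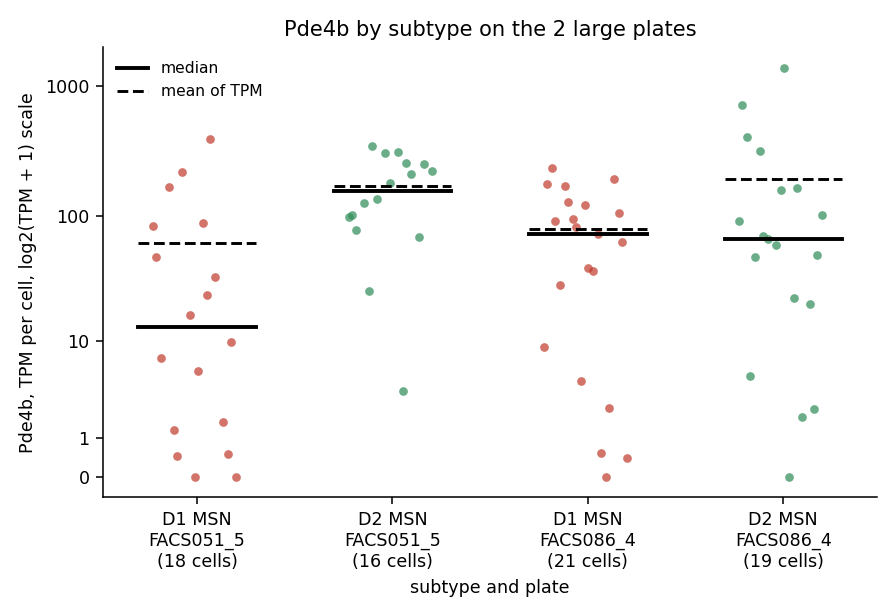
Pde4b in every MSN of the 2 large plates, by subtype, on a log2(TPM + 1) axis; solid bars are medians and dashed bars are means of TPM. On plate FACS051_5 the median was 13.1 TPM in D1 and 156 TPM in D2 MSN, whereas on plate FACS086_4 the medians of 71.8 and 65.4 TPM lie side by side and only the means differ.

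The other 9 genes differed by less than 2-fold over all MSN. Pde10a had a log2 fold of −0.33 (−0.40 and −0.14 on FACS051_5 and FACS086_4), and −0.22 without the 3 D1 cells that lacked it. Its medians in D1 against D2 MSN were 308 against 519 TPM on FACS051_5 but 448 against 399 TPM on FACS086_4. Without the 2 highest cells of each subtype its log2 fold on FACS086_4 was 0.02. Pde8b was higher in D1 MSN by a log2 fold of 0.59 (0.27 and 1.16), and Pde1c (−0.60; −1.76 and −0.22) and Pde7a (−0.84; −1.42 and −0.29) were higher in D2 MSN, each in the same direction on both plates but past 2-fold on no more than 1. For Pde1c the direction on FACS086_4 rested on 1 D2 cell at 385 TPM: without the highest cell of each subtype the log2 fold there was 0.15, and the medians were 7.07 TPM in D1 against 1.49 TPM in D2 MSN. In Pde1b (0.11), Pde7b (0.10), Pde2a (0.38), Pde4d (0.29) and Pde4a (−0.21), the fold of the means had opposite signs on the plates. For the first 4 of these the mean was lower in D1 MSN on FACS051_5 and higher on FACS086_4, with log2 folds from −0.41 to −0.14 and from 0.47 to 0.86. Pde4a had log2 folds of 0.27 and −1.05. Without the highest cell of each subtype, Pde1b, Pde7b and Pde2a still had opposite signs, whereas Pde4d was at −0.38 and −0.44 and Pde4a at −0.41 and −1.50, lower in D1 MSN on both plates. By medians, however, Pde1b and Pde2a were higher in D1 MSN on both plates. Pde1b had 352 against 323 TPM on FACS051_5 and 289 against 150 TPM on FACS086_4. Pde2a had 93.7 against 81.7 TPM and 82.5 against 31.7 TPM. Pde7b went opposite ways by medians too, with 54.7 against 171 TPM and 39.6 against 3.01 TPM. The value of 0.27 for Pde4a rested on 1 D1 cell at 365 TPM, the next being at 64.7 TPM, and the medians on FACS051_5 were 0.30 TPM in D1 against 6.60 TPM in D2 MSN. For these 5 genes, and likewise for Pde1c, Pde7a and Pde8b, the difference between subtypes over all MSN was smaller than that between the folds of the plates.

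**Figure D4:**
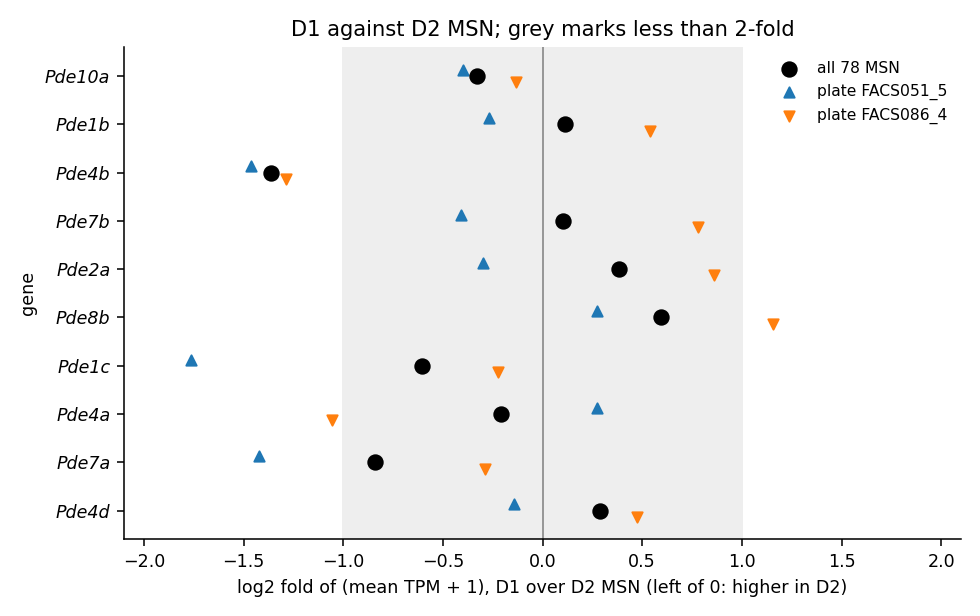
Log2 fold of mean TPM plus 1, D1 over D2 MSN, for the 10 genes ordered by mean level; black circles are all 78 MSN and triangles the values within each large plate, with the range of less than 2-fold in grey. Only Pde4b lies past 2-fold in all 3 values, and 5 genes have triangles on either side of 0.

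Plate itself could be compared within each subtype. Between FACS051_5 and FACS086_4, none of the 10 genes differed past 2-fold in the same direction in both subtypes, against 6.2% of the 7642 genes higher and 4.24% lower on FACS051_5 in both. Within a single subtype, FACS051_5 over FACS086_4, the log2 folds farthest from 0 were −1.81 for Pde1c and 1.35 for Pde4a in D1 MSN, and 1.45 for Pde7b and 1.39 for Pde8b in D2 MSN. For Pde4a 1 D1 cell on each plate held much of the mean, at 365 TPM on FACS051_5 and 147 TPM on FACS086_4. The medians of Pde4a in D1 MSN were 0.30 and 0.16 TPM. Since the labels do not tie plates to animals, plate and animal cannot be told apart.

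The cholinergic interneurons gave another pattern, with 2 cells from plate FACS051_5 (wells A08 and B02) and more genes above 1 TPM, 10912 and 10251, than any MSN. Pde10a was at 7.70 and 67.0 TPM in them, and 3 and 4 of the 78 MSN were at or below these levels. Pde7b was at 0.41 and 0.24 TPM and Pde2a at 0.53 and 0 TPM, both under 1 TPM. Pde1b, at 78.5 and 150 TPM, and Pde4b, at 102 and 37.7 TPM, lay within the range of MSN. The 10 genes summed to 199 and 285 TPM, below the lower quartile of 896 TPM in MSN, and the leading gene was Pde4b in the one and Pde1b in the other. Instead, Pde1a, the third calmodulin-dependent gene, stood at 326 and 131 TPM, whereas it was above 1 TPM in 8 of 78 MSN. Pde3a, a cAMP-hydrolysing gene whose enzyme cGMP inhibits, stood at 9.99 and 51.9 TPM, above its highest MSN at 2.88 TPM. With 2 cells these are values and not a comparison.

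Among the other catalytic genes of the family, 9 of 11 were listed, and all but Pde6a were found in at most 23 of the 78 MSN. Pde3b was above 1 TPM in 23, against 19 for Pde7a. Pde9a, which encodes a cGMP-specific enzyme, was above 1 TPM in 15, Pde11a in 12, Pde5a in 9, Pde1a and Pde4c in 8 each, Pde3a in 6 and Pde8a in 3. Pde6a is known as a subunit of the photoreceptor enzyme. That gene was above 1 TPM in 74 of 78 MSN at low level, with medians of 5.47 and 3.96 TPM in D1 and D2 MSN, and at 7.58 and 3.70 TPM in the interneurons. Of these 9 genes, 2 had a mean of at least 10 TPM, Pde9a and Pde1a, and neither was past 2-fold between the subtypes. Of all 7642 genes with such a mean, 9.58% were past 2-fold higher in D2 MSN and 12.4% higher in D1 MSN. The means of Pde9a and Pde1a rested on few cells, with Pde9a reaching 356 TPM and Pde1a 455 TPM.

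**Figure D5:**
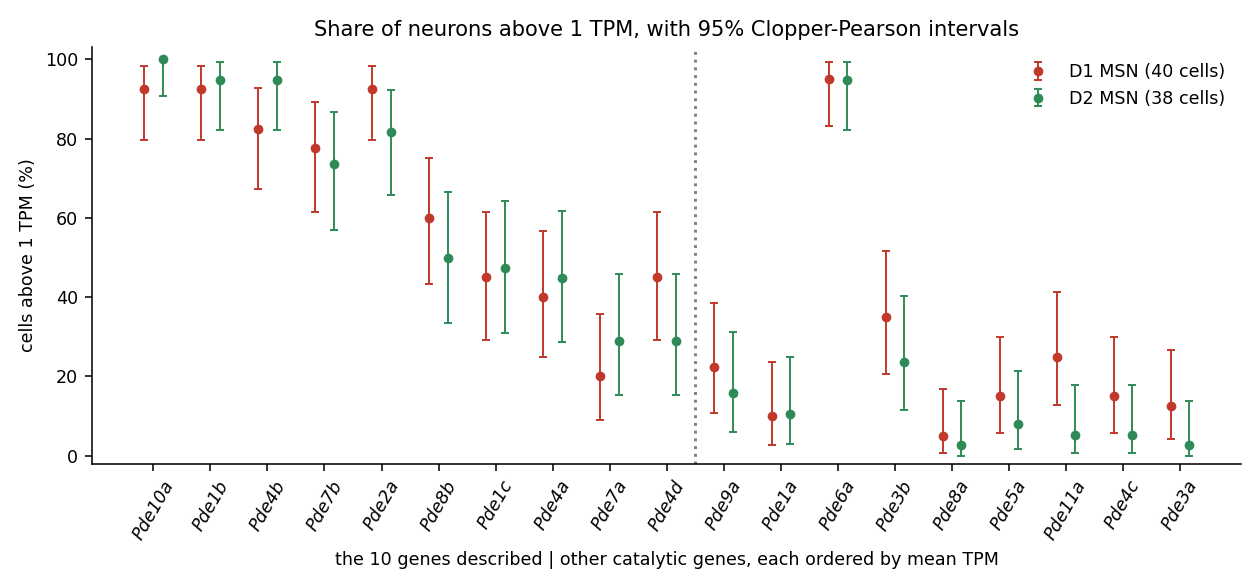
Share of D1 MSN (red, 40 cells) and D2 MSN (green, 38 cells) above 1 TPM for the 10 genes (left of the dotted line) and the 9 other catalytic phosphodiesterase genes (right), with 95% intervals after Clopper-Pearson for the error of counting alone. The first 5 genes exceed 70% in both subtypes, and of the others only Pde6a does.

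Genes that make the messengers were compared in the same way. Of 11 listed genes of cAMP synthesis, 5 had a mean of at least 10 TPM, of which 1 was past 2-fold, higher in D2 MSN. This was Gnas, the stimulatory G protein subunit, with a log2 fold of −2.86 (−2.61 and −4.70 on the large plates), and above 1 TPM in 6 of 40 D1 MSN and 22 of 38 D2 MSN. The 3 most abundant of the list did not differ past 2-fold: Gnal, the alpha subunit of Golf (−0.15), Gng7, its gamma subunit (−0.46), and Adcy5, the striatal adenylyl cyclase (0.36). Of 6 listed genes of cGMP synthesis, 2 had a mean of at least 10 TPM, of which 1 was past 2-fold, higher in D2 MSN, beside the same shares of all genes. Gucy1a3, a subunit of the guanylyl cyclase that nitric oxide activates, had a log2 fold of −1.26 (−0.62 and −1.53), with medians of 8.02 TPM in D1 against 101 TPM in D2 MSN. Gucy1b3, its partner subunit, had one of −0.41. Genes of this list with a lower mean went either way: Gucy1a2 (mean 7.77 TPM) had a log2 fold of −1.44, and the natriuretic peptide receptors Npr2 (mean 5.60 TPM) and Npr1 (mean 2.93 TPM), named after their values were seen, had 1.97 and 1.65. These folds rested on few cells. Npr1 was above 1 TPM in 2 of 40 D1 and 1 of 38 D2 MSN, with a highest D1 cell of 195 TPM. Its log2 fold on FACS086_4 was 0. Npr2 was above 1 TPM in 13 and 7, with medians of 0 and a highest D1 cell of 204 TPM. Gucy1a2 was so in 13 and 13, with a highest D2 cell of 160 TPM.

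Downstream, none of the 9 effector genes averaging at least 10 TPM, of 15 listed, was past 2-fold. Of all 7642 such genes, 9.58% were past 2-fold higher in D2 MSN and 12.4% higher in D1 MSN. Ppp1r1b (DARPP-32), Arpp21 and Arpp19, which encode phosphoproteins that the cAMP-dependent kinase acts on, were above 1 TPM in all 78 MSN with mean levels of 1666, 2469 and 1124 TPM and log2 folds of −0.15, −0.07 and −0.61. In the interneurons Arpp21 was at 12.2 and 0 TPM. Of 10 genes of phosphodiesterase partners, 8 had a mean of at least 10 TPM and none was past 2-fold, beside the same shares of all genes. Calm2, which encodes the calmodulin that activates PDE1, had a mean level of 4521 TPM, a log2 fold of −0.11, and 78 of 78 MSN above 1 TPM. Akap9, an anchoring protein of PDE4 and the kinase, had a mean level of 273 TPM and a log2 fold of −0.05.

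Levels of the 10 genes went along with each other only weakly from cell to cell. Over 45 pairs and 78 MSN, Spearman's rho ran from −0.09 to 0.45 with a median of 0.14, and the highest was that of Pde1b with Pde7b (0.36 on FACS051_5 and 0.50 on FACS086_4). These describe cells that share library plates and differ in genes found, with which the levels of single genes had a rho of 0.14 (Pde1c) to 0.48 (Pde1b). For the 6 genes above 1 TPM in at least 50% of MSN, the likeness to each of 3448 genes found as often was ranked by rho over the 78 MSN. Pde1b had the highest values, with Syndig1l (0.64), Rasd2 (0.62) and Atp2b2 (0.60), and Pde10a was most like Meg3, Rasd2 and RP24-571A14.6, each at 0.50. The genes most like Pde7b were Adam22 (0.55), Gnaq (0.53) and Dusp14 (0.52), and those most like Pde2a were Rock2 (0.54), Prkcb (0.51) and Ppp3ca (0.50). Among the genes most like Pde4b were Hpca (0.50) and Thoc1 (0.49), and those most like Pde8b were Pdcd6, Epb41l1 (0.55 each) and Sdf4 (0.50). These places were not stable: of the 18 genes so ranked, 1 was among the first 3 within FACS051_5 alone and 2 within FACS086_4 alone.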

How the data were processed

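Single-cell cDNA was made with the SMARTer Ultra Low Input kit. Per the labels and the study's methods, reads were converted with bcl2fastq 2.18, aligned with STAR 2.5.0 to mm10/GRCm38 (annotation GRCm38.75 with reporter sequences added) and counted with featureCounts 1.5.1. The authors deposited TPM, and how these were made is not given in the sources used here; values down to 1.75e-09 show that whole reads cannot be recovered, so depth per cell is unknown. All 80 cells were used, including those with few genes; 77 had at least 2000 genes above 1 TPM. Of the columns, 0 were duplicated, and doublets were not called.

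A gene was counted in a cell above 1 TPM. Log2 folds were taken between mean TPM plus 1, called past 2-fold, and set beside genes averaging at least 10 TPM. Because the labels name no animal, no test was made. The scripts were tested on simulated data. All 10 genes, the other catalytic genes, the 3 most abundant genes of each further list, those past 2-fold in 1 direction on both large plates, and the 3 most like genes were named, apart from 2 genes that are not reported here. Cells B07 and C06 of plate FACS051_5 and the gene overlaps were singled out after their values were seen. The genes and lists were chosen with earlier results of these data known. Python 3.11.15, numpy 2.4.6, pandas 2.3.3 and scipy 1.17.1 were used.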

Additional observations from a re-analysis of the deposited data

How the results depend on the processing

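Over 17 alternatives, Pde4b had a log2 fold (D1 over D2 MSN) between −1.57 and −1.21 and was past 2-fold in all 17, with plates pooled or with either large plate left out; within plate FACS086_4 alone this rests on 1 cell. The count of genes past 2-fold, 1 of 10, was 1 in 13 alternatives. It was 2 without the highest cell of each subtype per gene (Pde4b and Pde7a), 3 without plate FACS086_4 (Pde4b, Pde1c and Pde7a, all higher in D2 MSN), and, in alternatives added after seeing the data, 2 without the 2 highest cells (Pde4b and Pde7a) and 2 by the medians (Pde4b, and Pde8b at 1.03, higher in D1 MSN). The cause of these differences was not tested. Of 170 log2 folds under alternatives, 162 moved by less than the spread (SD) between both large plates. That spread was wide: for 6 of the 10 genes (Pde1b, Pde1c, Pde2a, Pde4a, Pde4d and Pde7b) the log2 fold took both signs over the settings. The median number of the 10 genes found per cell was 5.5 to 8, and the dual-specificity share was at least 70.2%. With a mean of at least 1 TPM in place of 10, 21.1% of all genes were past 2-fold higher in D1 MSN and 14.8% in D2 MSN. Of the 18 genes ranked most like, 12 were also ranked so after removing the rank of genes per cell and 6 by Pearson's r of log2 values. No paired analysis was possible because the labels give no replicate numbers and name no animal, other than by plate: as the mean of the folds within both large plates, Pde4b was at −1.37. TPM keep no depth, so a value of 0 does not show absence.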
